A study of Rattus norvegicus with 6 samples.

Results

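Noncoding RNAs known for their abundance were examined in bulk RNA-seq of mammary tumors from F344 rats, an inbred strain. The members were fixed as 6 gene symbols, namely Rpph1, Rmrp, Terc, H19, Meg3 and Malat1, and every row of the deposited read count table with one of these symbols was taken. Only 2 of the 6 symbols, Rpph1 and H19, matched a row of the 30562 in the table, with 1 row each, and Rmrp, Terc, Meg3 and Malat1 were not analysed here. Of all rows, 4367 carry no gene name, and no name was inferred for them.

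The 6 tumors fell into 2 age groups of 3. Tumors 102, 107 and 116 came from older rats, which were 21 to 23 months old when dosed, and tumors 157, 158 and 167 came from younger rats, dosed at 4 months. Both groups shared the same induction: a subcutaneous pellet holding 50 mg of MPA, a progestin, released over 90 days, and 1 oral dose of the carcinogen DMBA at 65 mg/kg. Untreated gland was not analysed here, each tumor was 1 library, and the labels number the tumors without stating that each came from a different rat, so that p-values measure the spread between tumors. Luminal epithelial markers, which mark the milk duct lining, were present in every library, with a summed level of 1091 to 1683 CPM (counts scaled to a common library total by TMM, which corrects for library composition) over the 4 of 5 listed genes with a row.

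Library totals ran from 3508571 to 6525830 counts. A count of 0 was read as allowing up to 3 counts, the floor, which is between 4.6e-05% and 8.55e-05% of a library. Intervals and floors given here cover counting error only. All values come from whole tumor pieces, in which fewer cells of a type and less RNA per cell cannot be told apart.

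Rpph1 is the RNA component of RNase P, the ribonucleoprotein that removes the 5′ leader of precursor tRNAs. It is a short RNA made by RNA polymerase III and carries no poly(A) tail. Its close relative, the RNA of RNase MRP encoded by Rmrp, shares most protein subunits with it and acts on precursor ribosomal RNA. H19 is a long noncoding RNA made by RNA polymerase II and expressed from the maternal chromosome. It neighbors Igf2, which encodes a fetal growth factor, is expressed from the paternal chromosome and draws on the same enhancers. In adult rodents both genes are mostly silent outside a few tissues, while RNase P RNA is needed by every cell.

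The H19 transcript carries a microRNA precursor, Mir675, whose mature products are shown because they are the only part of a member with a sequence in the RefSeq tables used (build GRCr8, chromosome 1, minus strand). Capitals mark the seed, bases 2 to 8, and the seeds of the 2 arms differ.
rno-miR-675-5p: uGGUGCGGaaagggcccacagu
rno-miR-675-3p: uGUAUGCCcuaaccgcucagu
The Mir675 row of the table held 0 counts in all 6 tumors, which allows a share of up to 8.55e-05% in the shallowest library. These libraries were not made to capture mature microRNAs, and reads of the precursor that lie inside H19 overlap both genes.

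The identity of the Rpph1 row needs care. The RefSeq gene list gives the symbol Rpph1 to a gene of 257 bases on chromosome 15 that lies within the span of Parp2, with Ccnb1ip1 before it and Tep1 after it. The same list classes that gene as an RNase MRP RNA and names Rmrp as its synonym. The table holds, apart from Rpph1, 1 row with the family name RNase_MRP, singled out here after its values had been seen. The 2 rows are reported side by side under the names the table gives them. The strand setting of the counting is not given in the sources used here, so reads of Rpph1 and of an overlapping Parp2 transcript could not be separated by strand. Parp2 itself held 69 to 174 counts per tumor.

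Rpph1 was among the most counted rows in every tumor. In older tumors it had 12419 counts (tumor 102), 21336 counts (tumor 107) and 44774 counts (tumor 116). In younger tumors it had 31082 counts (tumor 157), 22455 counts (tumor 158) and 38013 counts (tumor 167). These counts placed the row between rank 4 (tumor 116) and rank 20 (tumor 158) of the whole table.

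As a share of all counts, Rpph1 took 0.354% in tumor 102, 0.45% in tumor 107 and 0.975% in tumor 116, all older. It took 0.588% in tumor 157, 0.344% in tumor 158 and 1.01% in tumor 167, all younger. Exact 95% binomial intervals were narrow, the widest running from 0.999% to 1.02% (tumor 167), and neighbors in the order of shares were separated by them except tumors 158 and 102. Each age group therefore held both low and high tumors, and the groups overlapped over nearly their whole range. The mean share was 0.593% ± 0.334 (SD, n = 3) in older tumors and 0.647% ± 0.336 (SD, n = 3) in younger tumors, a difference of -0.054 percentage points (2-sided exact permutation test, p = 0.8, and 0.8 adjusted over the shares of both members). With 3 tumors against 3, this test cannot give a p below 0.1.

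**Figure D1:**
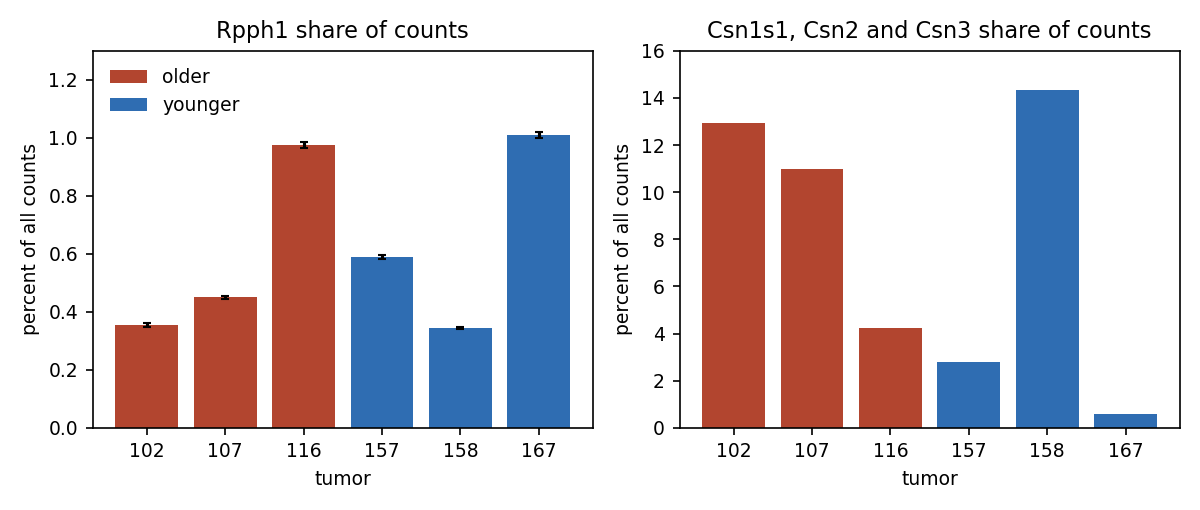
Share of all counts in each tumor taken by Rpph1 (left, y axis in percent, bars with exact 95% binomial intervals) and by 3 casein genes together (right, y axis in percent, no interval drawn). Tumors 116 and 167, 1 of each age group, have the highest Rpph1 shares, and tumor 158 has the lowest Rpph1 share and the highest casein share.

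Scaled by TMM, Rpph1 was at 5815 ± 2487 CPM in older and 6107 ± 2624 CPM in younger tumors (mean ± SD, n = 3 each). The log2 fold change, older against younger, was -0.07 (standard error, SE, 0.51; edgeR's quasi-likelihood test, adjusted p = 0.986). Its direction changed when tumor 102 (0.13), tumor 107 (0.07) or tumor 167 (0.32) was left out. A difference of this size was not detectable, which does not show that the age groups were equal.

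What varied was the level from tumor to tumor. The highest level, 9028 CPM in tumor 167, was 2.29 times the lowest, 3950 CPM in tumor 158. The standard deviation of log2 CPM over the 6 tumors was 0.53 for Rpph1, and 58.7% of the 14060 rows tested had a smaller one, so the spread of Rpph1 was near that of a typical gene.

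Casein genes, which encode milk proteins, took large and unequal shares of these libraries, and their part in the Rpph1 values was not tested beyond leaving them out. Csn1s1, Csn2 and Csn3 took 13.0%, 11.0% and 4.22% of the counts in older tumors 102, 107 and 116, and 2.8%, 14.3% and 0.594% in younger tumors 157, 158 and 167. The 3 tumors with the largest casein shares were those with the lowest Rpph1 shares. Taken as a share of the counts without these 3 genes, a setting added after the data had been seen, Rpph1 still ranged over 2.53-fold, against 2.93-fold with them. Without the 10 most counted rows other than the members it ranged over 2.57-fold, from 0.429% to 1.11%. Mitochondrially encoded genes took 4.84% to 8.42% of the counts, with the highest share in tumor 102, where Rpph1 was low, and the next highest (8.15%) in tumor 167, where it was high.

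Among the rows matched by name to small noncoding classes, Rpph1 held most of the counts. Matching row names to RefSeq found 2220 rows of small noncoding classes, among them small nuclear, nucleolar, signal recognition particle and RNase MRP RNAs, of which 774 had at least 1 count and 71 passed the filter on low counts. Rpph1 alone took between 83.3% (tumor 102) and 91.7% (tumor 116) of the counts in these rows, and it ranked first among them in all 6 tumors. The other rows together held 2488 to 4075 counts per tumor. These shares count reads and are not corrected for length.

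Scarna10, a guide RNA of Cajal bodies, was the only other listed small RNA with more than 100 counts in any tumor. Older tumors had 391 (tumor 102), 523 (tumor 107) and 890 (tumor 116) counts of it, and younger tumors had 551 (tumor 157), 490 (tumor 158) and 818 (tumor 167). As with Rpph1, tumors 116 and 167 were highest, and the log2 fold change between ages was 0.15 (SE 0.36; edgeR, adjusted p = 0.956). Per kilobase of gene length, Scarna10 reached 263 to 592 CPM and Rpph1 15368 to 35128 CPM. This scaling is rough, since it does not correct for how well short RNAs were recovered in the libraries. Rn7sl1, the RNA of the signal recognition particle, had only 21 to 53 counts per tumor, and its reads can be split between many near-identical copies. Rnu6atac, a minor spliceosome RNA, was at 0 counts in all 6 tumors. The other 15 of the 18 small RNAs listed matched no row.

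The row RNase_MRP had 60, 80 and 346 counts in older tumors 102, 107 and 116 and 226, 89 and 153 counts in younger tumors 157, 158 and 167. Tumor 116 was highest and tumors 102, 107 and 158 were lowest, the same 3 tumors in which Rpph1 was lowest. Its log2 fold change was 0.21 (SE 0.59; edgeR, adjusted p = 0.964). The log2 ratio of Rpph1 to this row, which does not depend on how libraries are scaled, lay between 7.01 (tumor 116) and 8.02 (tumor 107). It was 7.56 ± 0.52 (SD, n = 3) in older tumors and 7.66 ± 0.49 (SD, n = 3) in younger tumors, a difference of -0.09 (2-sided exact permutation test, p = 0.9, and 0.9 adjusted over the 2 ratios tested).

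The genes with the pattern most like Rpph1 over the 6 tumors were sought among 10224 named rows with a mean of at least 10 CPM, by the root mean square difference of log2 CPM after each row's own mean was subtracted. The nearest were RGD1309350 (difference 0.07), LOC687679 (0.07) and Rpl21 (0.13), a protein of the large ribosomal subunit, where the median row differed by 0.61. Rpl21 was at 120, 142 and 221 CPM in older tumors 102, 107 and 116 and at 175, 125 and 237 CPM in younger tumors 157, 158 and 167. Of the 20 nearest rows, 6 carried a symbol that begins with Rpl or Rps and a digit, or a few further ribosomal names, against 0.812% of the rows compared. This match by symbol also takes kinase genes whose symbols begin with Rps6k. The count was made after the names had been seen and is given without a test.

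**Figure D2:**
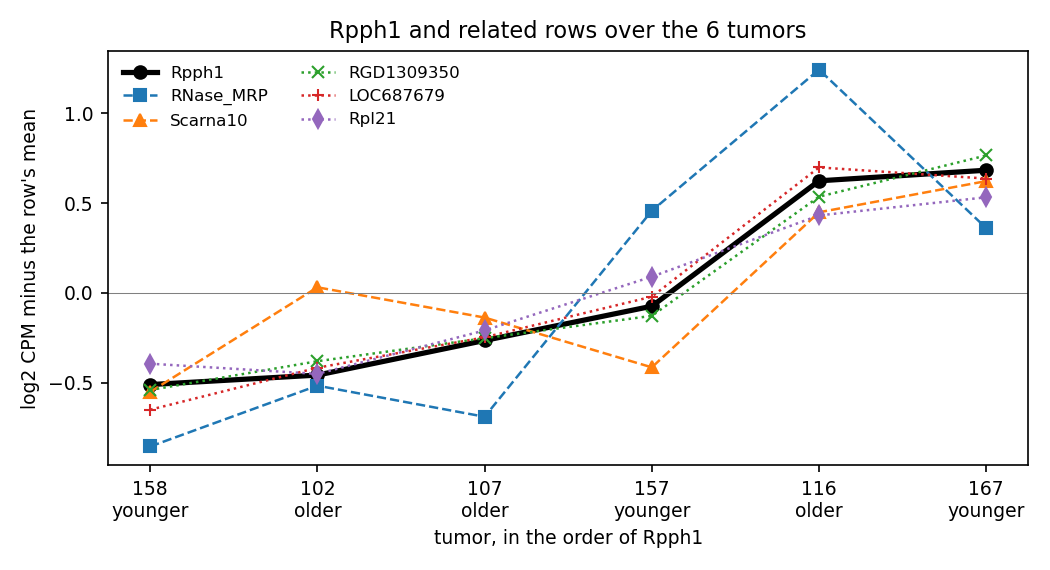
Log2 CPM minus the row's mean over the 6 tumors (y axis) for Rpph1, the rows RNase_MRP and Scarna10, and the 3 rows nearest to Rpph1, with tumors in the order of Rpph1 (x axis). All 6 rows lie above their mean in tumors 116 (older) and 167 (younger) and below it in tumors 158 and 107, and RNase_MRP departs furthest, in tumor 116.

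RNase P and RNase MRP share most of their protein subunits, and no subunit passed the test between ages. Of the 11 listed, 10 had a row and 8 passed the filter on low counts, and 0 of these 8 differed between ages at an adjusted p under 0.05 in edgeR, with 0 at an unadjusted p under 0.05 and 0 in DESeq2 or limma-voom. Across all rows tested, 0.0% passed the adjusted threshold in edgeR and 8.55% the unadjusted one (5.28% higher and 3.26% lower in older tumors). The log2 fold changes were positive for 3 and negative for 5 genes, where 49.6% of all rows were positive, with a median of -0.28 against 0.00 for all rows tested. Their summed level, in which genes with more counts weigh more, ran from 111 to 156 CPM. The sum was highest in tumors 116 (156 CPM) and 167 (154 CPM), the 2 tumors in which Rpph1 was highest. In tumor 167 Rpp40 alone gave 41.6 CPM of it, against 21.3 CPM in tumor 116.

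Rpp38, a subunit that binds a kink-turn in the RNA, was the only one of the 8 whose age groups did not overlap. It was at 46.2, 41.7 and 51.7 CPM in tumors 102, 107 and 116 and at 30.8, 25.9 and 36.8 CPM in tumors 157, 158 and 167. The log2 fold change was 0.58 (SE 0.25; edgeR, adjusted p = 0.584), and 12.2% of all rows tested had groups that did not overlap (6.58% with older tumors higher). Single subunits spread widely from tumor to tumor, Pop1 from 3.96 to 11.9 CPM and Rpp25l from 2.97 to 8.52 CPM. Rpp40 stood at 41.6 CPM in tumor 167 and at 15.1 to 21.3 CPM in the other 5 tumors.

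Listed genes of RNA polymerase III and its factors did not pass the test between ages. All 22 genes with a row, of 23 listed, were tested, and 0 passed an adjusted p under 0.05 in edgeR, with 0 at an unadjusted p under 0.05 and 0 in DESeq2 or limma-voom. Their log2 fold changes were positive for 12 and negative for 10 genes, with a median of 0.02. The summed level ran from 735 CPM in tumor 158 to 869 CPM in tumor 167, the tumors in which Rpph1 was lowest and highest. The order was not kept between them, with 822 CPM in tumor 102 and 791 CPM in tumor 157, where Rpph1 was higher. Bdp1 alone went from 142 CPM in tumor 158 to 212 CPM in tumor 167. Single genes spread more, among them Snapc2, a subunit of the complex that binds small nuclear RNA promoters, which ran from 6.65 CPM in tumor 167 to 32.9 CPM in tumor 158. Only Snapc1, of the same complex, had groups that did not overlap, against 12.2% of all rows tested. It was at 15.5, 12.9 and 15.3 CPM in tumors 102, 107 and 116 and at 18.2, 21.6 and 22.1 CPM in tumors 157, 158 and 167. Its log2 fold change was -0.50 (SE 0.27; edgeR, adjusted p = 0.7165).

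H19 behaved in the opposite way to Rpph1, with few counts and a large spread. It had 3 counts in tumor 102, 822 in tumor 107 and 58 in tumor 116, all older. It had 195 counts in tumor 157, 73 in tumor 158 and 3 in tumor 167, all younger. Each age group thus held 1 tumor at the floor of 3 counts, and the highest value of the 6 was in an older tumor.

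In CPM, H19 stood at 0.99, 180 and 11.2 in tumors 102, 107 and 116 and at 33.5, 12.8 and 0.712 in tumors 157, 158 and 167. As a share of counts, tumor 107 exceeded tumor 102 by 203-fold (exact 95% interval of the ratio, 69.1 to 985), and tumor 157 exceeded tumor 167 by 46.3-fold (15.6 to 227). Exact binomial intervals of the share overlapped between tumors 167 and 102 and between tumors 116 and 158, so the order of those pairs was not resolved. The standard deviation of log2 CPM over the 6 tumors was 2.78, larger than that of 99.9% of the rows tested.

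Between the age groups, the mean H19 level was 64.2 ± 101 CPM (SD, n = 3) in older tumors and 15.7 ± 16.6 CPM (SD, n = 3) in younger tumors. The log2 fold change was 2.02 (SE 1.58; edgeR, adjusted p = 0.832), smaller than the spread within the older group. It rested on tumor 107, without which it was -1.31. The mean share of counts was 0.00623% ± 0.00963 (SD, n = 3) and 0.00163% ± 0.00186 (SD, n = 3), a difference of 0.0046 percentage points (2-sided exact permutation test, p = 0.6, and 0.8 adjusted over the shares of both members), which became -0.00095 without tumor 107.

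Both members passed the filter on low counts, and 0 of the 2 differed by age at an adjusted p under 0.05 in edgeR, with 0 at an unadjusted p under 0.05 and 0 in DESeq2 or limma-voom, where DESeq2 called 346 rows, 2.47% of those with an adjusted p. The summed share of the members followed Rpph1 alone, from 0.345% in tumor 158 to 1.01% in tumor 167, and the difference of the means, older minus younger, was -0.049 percentage points and turned positive without tumor 102 (0.0732), 107 (0.0167) or 167 (0.131). Per kilobase of gene length, H19 was at 0.266 to 67.4 CPM where Rpph1 was at 15368 to 35128 CPM. The length taken for H19, 2677 bases, is its whole gene span and includes short introns. Among the 270 rows named as long noncoding RNAs, of which 48 passed the filter, H19 was at rank 4 by its sum over tumors and ranked from 1 (tumor 107) to rank 76 (tumors 102 and 167).

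Igf2, the neighbor of H19, had its 3 higher levels in the older tumors. It was at 79.2 CPM (240 counts) in tumor 102, 3699 CPM (16855 counts) in tumor 107 and 411 CPM (2123 counts) in tumor 116. In younger tumors it was at 13.2, 12.3 and 12.3 CPM (77, 70 and 52 counts). Every older tumor lay above every younger one, and the younger tumors were within 1.08-fold of each other. In tumor 107 Igf2 ranked 19 among all rows.

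Igf2 had a log2 fold change of 6.79 (SE 1.41). In edgeR its adjusted p was 0.264, and only the unadjusted p of 0.0015 was under 0.05. DESeq2 gave the same fold change with an adjusted p of 4.72e-09. Across the 12 other settings and left-out tumors, the adjusted p of edgeR or limma-voom ran from 0.116 to 0.705. Tumor 107 carried much of the size, since the log2 fold change was 4.28 without it.

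Set against each other, the 2 neighbors did not keep a fixed ratio. Among older tumors H19 and Igf2 came in the same order, lowest in tumor 102 and highest in tumor 107 for both genes. In younger tumors Igf2 was level while H19 ranged from 3 to 195 counts. H19 made up 1.23% of the counts of the pair in tumor 102 (exact 95% interval 0.255% to 3.56%), 4.65% in tumor 107 (4.34% to 4.97%) and 2.66% in tumor 116 (2.02% to 3.42%). It made up 71.7% in tumor 157 (65.9% to 77%), 51.0% in tumor 158 (42.6% to 59.5%) and 5.45% in tumor 167 (1.14% to 15.1%). All 3 older tumors were below all 3 younger ones, but the interval of tumor 167, with 3 counts of H19 and 52 of Igf2, covered the older values.

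The log2 ratio of H19 to Igf2 was -5.11 ± 0.73 (SD, n = 3) in older tumors and -0.71 ± 2.49 (SD, n = 3) in younger tumors. The difference of -4.4 gave the smallest p that 3 against 3 tumors allow (2-sided exact permutation test, p = 0.1, and 0.2 adjusted over the 2 ratios tested). The ratio was lower in all older tumors, and the difference lay between -5.79 and -3.39 with each tumor left out in turn. Mean log2 CPM of Igf2 was 8.951 in older and 3.706 in younger tumors. That of H19 was 3.846 and 2.999, so its mean was not lower in older tumors. The difference in ratio thus mostly restates that of Igf2 and is not a separate result for H19. Without tumor 107 the log2 fold change of H19 was negative (-1.308).

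**Figure D3:**
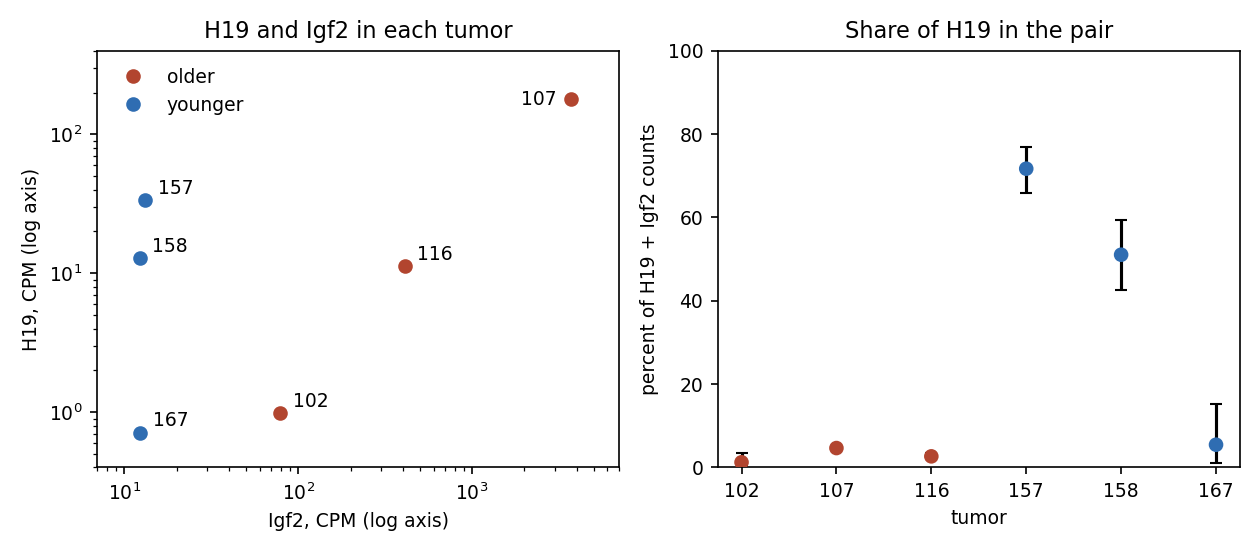
H19 against Igf2 in CPM, 1 point per tumor (left, both axes logarithmic), and the share of H19 in the summed counts of the pair with exact 95% binomial intervals (right, y axis in percent). The younger tumors stand in a column near 12 to 13 CPM of Igf2, the older tumors lie to the right of them, and tumors 157 and 158 hold the 2 high shares of H19.

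Summed levels of leukocyte and of luminal epithelial markers did not overlap between the age groups. The part of these markers in the H19 and Igf2 values was not tested. In edgeR and limma-voom 0 genes of any marker list passed an adjusted p under 0.05, and in DESeq2 1 did, Ptprc (adjusted p = 0.00162). Of the leukocyte markers 3 of 4 passed the filter (Ptprc, Cd68 and Cd3e), each with an unadjusted p under 0.05 and an adjusted p between 0.265 and 0.371 in edgeR, and their groups did not overlap, where 6.58% of all rows tested were higher in older tumors without overlap. The remaining marker, Cd79a, did not pass the filter and had few counts, which were lower in older tumors. It had 0, 3 and 4 counts in tumors 102, 107 and 116 and 7, 6 and 5 counts in tumors 157, 158 and 167. The summed level of the 4 was 137 to 426 CPM in older tumors, highest in tumor 107, and 52.9 to 91.3 CPM in younger tumors. Luminal epithelial markers ran the other way, with sums of 1091 to 1188 CPM in older and 1438 to 1683 CPM in younger tumors. Of the 4 tested, Epcam and Krt8 had groups that did not overlap, where 12.2% of all rows tested had none, while Krt18 and Cdh1 overlapped. In edgeR 0 of them passed an unadjusted p under 0.05, and the smallest adjusted p was 0.628. Skeletal muscle, a tissue in which H19 stays expressed after birth, was represented by Acta1 at 45.9 CPM in tumor 107 and 1.55 to 21.5 CPM in the others, while Ckm, the muscle creatine kinase, was at 0 to 0.712 CPM in all 6 and Myh4 at 0.172 to 1.16 CPM. Tnnt3, a muscle troponin gene that lies near H19, was at 3.96, 5.27 and 3.10 CPM in tumors 102, 107 and 116 and at 0.344, 2.46 and 1.19 CPM in tumors 157, 158 and 167, without overlap (log2 fold change 1.60; edgeR, unadjusted p = 0.049, adjusted p = 0.583). The sum of the 4 muscle markers with a row was 5.81 to 52.4 CPM in older and 15.9 to 24.8 CPM in younger tumors.

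Markers of fibroblasts, another cell type of the mammary stroma, summed to 125 CPM in tumor 107, where H19 was highest, and to 114 CPM in tumor 167, where it was at the floor. They reached 1253 CPM in tumor 102, where H19 was also at the floor, and 598 to 1007 CPM in the remaining tumors. Myoepithelial markers (4 of 5 with a row) summed to 407 to 2317 CPM in older and 1676 to 2508 CPM in younger tumors, with the lowest value in tumor 102. Endothelial markers (4 of 4) summed to 91.2 to 360 CPM in older and 58.9 to 298 CPM in younger tumors, and adipocyte markers (4 of 4, with Adipoq and Lep under the filter) to 11.4 to 160 CPM and 4.99 to 14.3 CPM. The myoepithelial sum was highest in tumors 157 (2508 CPM), 107 (2317 CPM) and 158 (1688 CPM), where H19 was also highest. Tumor 167, with H19 at the floor, was close behind at 1676 CPM. Tumors 158 and 116 were not resolved in H19, and the sum in tumor 116 was 618 CPM. The part of these cell types in the H19 values was not tested.

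The wider list of genes from the H19 and Meg3 loci, with other imprinted genes and the receptors and RNA-binding proteins of the insulin-like growth factor system, held 25 genes. Of these 22 had a row and 14 were tested. In edgeR 0 of 14 passed an adjusted p under 0.05. At an unadjusted p under 0.05 there were 4, all higher in older tumors, where 5.28% of all rows were higher at that level, and DESeq2 called 3 of the 14 and limma-voom 0. The log2 fold changes were positive for 10 and negative for 4 genes, with a median of 0.36 against 0.00 over all rows.

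The 4 genes were Sgce, Igf2, Igf1r and Peg3. Sgce, a sarcoglycan expressed from the paternal copy, was at 9.24, 17.1 and 5.03 CPM in tumors 102, 107 and 116 and at 1.38, 1.41 and 1.19 CPM in tumors 157, 158 and 167, with a log2 fold change of 2.95 (SE 0.57; edgeR, adjusted p = 0.228). Igf1r, the receptor through which Igf2 signals, was at 96.7, 40.2 and 80.1 CPM in older and 17.0, 5.28 and 26.6 CPM in younger tumors, with a log2 fold change of 2.15 (SE 0.59; edgeR, adjusted p = 0.343). Both had groups that did not overlap, and Igf1r was lowest of the older tumors in tumor 107, where Igf2 was highest. Peg3, an imprinted zinc finger gene, was at 304 to 668 CPM in older and 209 to 325 CPM in younger tumors, with overlap between tumors 116 and 157 (log2 fold change 0.89, adjusted p = 0.538, edgeR).

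At an unadjusted p under 0.05, 0 genes of this list were lower in older tumors in edgeR. The most negative value was that of Igf2bp2, an RNA-binding protein, at 2.31 to 6.77 CPM in older and 2.99 to 23.2 CPM in younger tumors (log2 fold change -1.72, SE 0.78; edgeR, adjusted p = 0.615). Igf2r, the receptor that clears Igf2, was at 205 to 340 CPM in older and 321 to 493 CPM in younger tumors (log2 fold change -0.57, SE 0.30; edgeR, adjusted p = 0.7). Dlk1, the paternally expressed gene of the Meg3 locus, was low in all 6 tumors, with 5, 35 and 9 counts in tumors 102, 107 and 116 and 20, 25 and 12 counts in tumors 157, 158 and 167. It was highest in tumor 107, as was H19, and its log2 fold change was 0.06 (SE 0.67; edgeR, adjusted p = 0.991). Ins2, which lies beside Igf2, was at 0 counts in all 6 tumors.

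**Figure D4:**
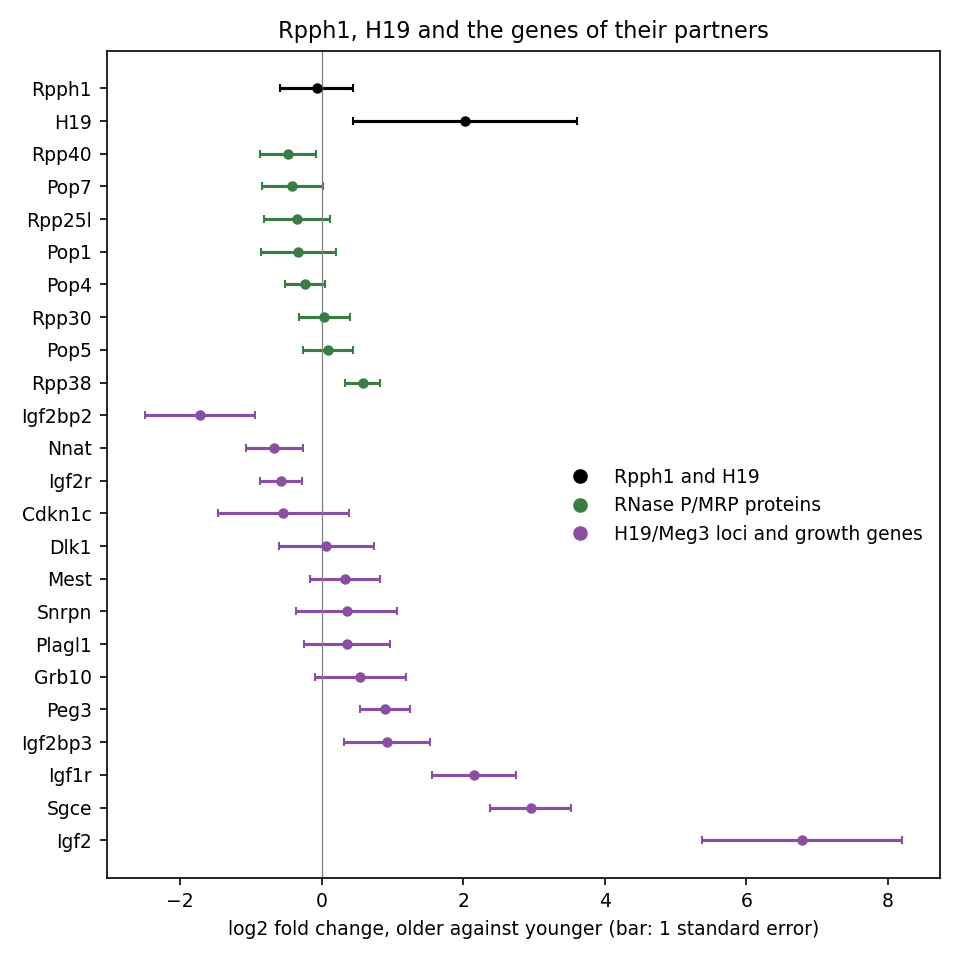
Log2 fold change of older against younger tumors (x axis, points) with 1 standard error (bars) for Rpph1, H19, the 8 tested protein subunits of RNase P and RNase MRP, and the 14 tested genes of the H19 and Meg3 loci and of growth. Rpph1 lies at -0.07, the bar of H19 is the widest, and Igf2 stands apart at 6.79.

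No row lay close to H19 over the 6 tumors by the measure used here. By the same measure as for Rpph1, the nearest rows were Clic6, a chloride intracellular channel protein (difference 1.42), Tubb4a, a tubulin (1.42), and Chrdl2, a secreted antagonist of bone morphogenetic proteins (1.52), and the median row differed by 2.56. Chrdl2 was at 83.0 CPM in tumor 107 and at 1.19 to 7.26 CPM in the other tumors. Igf2 was not among the near rows, at a difference of 2.66 and rank 7288 of 10224. The measure is not scaled for spread, and the standard deviation of log2 CPM of Igf2 was 3.37. Its rank therefore does not show that its pattern was unlike that of H19.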

How the data were processed

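Bulk RNA-seq was measured in 6 rat mammary tumors, 3 per age group. The authors removed ribosomal RNA (the labels name polyA RNA), checked and trimmed reads, ran STAR for alignment, flagged duplicates in Picard, and deposited unnormalized read counts per gene from HTSeq 0.13.5. The submitters' processing notes name the build mRatBN7.2. The annotation release, the strand setting and the handling of multi-mapped reads are not given in the sources used here. The methods give reads of 150 bases and the labels 100.

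The software was R 4.3.3, with DESeq2 1.42.0, limma 3.58.1 and edgeR 4.0.16 as packages. Rows were filtered with filterByExpr, which kept 14060 of 30562, scaled by TMM and tested in edgeR by quasi-likelihood, with p-values adjusted over all rows (Benjamini-Hochberg, threshold 0.05). The F statistic and the fold change gave the standard error. A prior count of 2 went into log2 CPM. Shares and ratios were compared by exact permutation tests. Scripts were tested on simulated data. Names were matched to the RefSeq gene list of GRCr8 (23229 of 25882 different names are symbols there). That build differs from the one of the counts, so the list gave only names, classes, chromosomes, neighboring genes and gene lengths, and no coordinates are printed. Columns left unused numbered 0.

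All members, their partners' protein lists, the marker lists and the tests were chosen with earlier results of these data known. Named were both members, the partners used in a ratio, Tert, up to 4 genes of a list with the smallest unadjusted p, and for each member the 3 rows most like it; other genes were chosen with their values known.

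Alternatives were other scalings, filters and tests, leaving out abundant genes, another prior count and leaving out each tumor.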

Additional observations from a re-analysis of the deposited data

How the results depend on the processing

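No paired analysis was possible because older and younger tumors have no replicate numbers in common. The count of rows past the adjusted threshold was 0 in edgeR (1202 at an unadjusted p under 0.05), 1 with all rows of at least 1 count, 346 with DESeq2's Wald test (232 higher in older tumors), and 0 in the 5 other settings and in each of the 6 fits without a tumor.

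The log2 fold change of Rpph1 lay between -0.13 and -0.07 over 7 other settings and between -0.48 and 0.32 with a tumor left out, and that of H19 between 0.98 and 2.03 over 6 settings and between -1.31 and 3.21; the minimum of 10 counts in every tumor removed H19. Rpph1 turned positive without tumors 102 (0.13), 107 (0.07) or 167 (0.32) and H19 negative without tumor 107, and the cause was not tested. With a tumor left out, the share difference ranged from -0.245 to 0.127 percentage points for Rpph1 and from -0.00095 to 0.00767 for H19, and the summed share difference from -0.238 to 0.131. The log2 ratio difference of Rpph1 to RNase_MRP, chosen after the data had been seen, ranged from -0.38 to 0.19, and that of H19 to Igf2 from -5.79 to -3.39. A prior count of 0.5 and the left-out abundant rows turned no direction. No p of either member or ratio passed 0.05 in any setting run. Planned results for Rmrp, Terc, Meg3 and Malat1, including 3 ratios, were not run because these symbols matched no row. At 3 counts in tumors 102 and 167, depth limits H19.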

Other observations

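The protein partners of the RNAs that matched no row were counted well enough to be described. Telomerase works with the RNA encoded by Terc, and its catalytic subunit Tert was at 9.24, 5.93 and 15.9 CPM in older tumors 102, 107 and 116 and at 8.08, 7.74 and 8.79 CPM in younger tumors 157, 158 and 167, so that the older tumors spread on both sides of the younger ones (log2 fold change 0.34, SE 0.44; edgeR, adjusted p = 0.916). Of the 9 telomerase and H/ACA protein genes all were tested, and 0 passed an adjusted p under 0.05 in edgeR, with 0 at an unadjusted p under 0.05 and 0 in DESeq2 or limma-voom. The same counts, 0 in each test, held for the 6 genes of shelterin, the complex that caps telomeres, and for 13 genes of Malat1 processing, nuclear speckles and paraspeckles. The median log2 fold changes of these lists were -0.01, 0.08 and 0.01. The summed level of shelterin genes was 163 to 184 CPM in older and 144 to 161 CPM in younger tumors, and 0 of the 6 genes had groups that did not overlap, against 12.2% of all rows tested.

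The 31 other long noncoding RNAs listed, Neat1 and Xist among them, matched 0 rows by symbol. The rows with the most counts among those named as long noncoding RNAs carried locus names, led by LOC100909928 with 5161 counts over the 6 tumors and 1381 in tumor 102, and LOC108352541 with 2359 counts over the 6 tumors.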
